A study of Mus musculus with 10 samples.

Results

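The nuclear-encoded subunits of respiratory complexes II, III, IV and V and cytochrome c were followed through 10 RNA libraries of mouse skeletal muscle. A gene belonged to the set if its Ensembl ID mapped to a protein-coding mouse symbol that was Sdha, Sdhb, Sdhc, Sdhd, Cyc1 or Cycs or that began with Uqcr, Cox4i, Cox5, Cox6, Cox7, Cox8 or Atp5. This gave 49 of the 43629 genes in the files, with 4 genes for complex II, 9 for complex III, 1 for cytochrome c, 18 for complex IV and 17 for complex V. A further 7 rows with such names were pseudogenes and were left out, and none of them had more than 6 counts in a library. The rule used names and not expression levels.

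The study compared muscle of IMP2 knockout mice with wild-type muscle. IMP2, the product of Igf2bp2, is a protein that binds mRNA. The groups were total RNA of knockout muscle (KO total, n = 3), total RNA of wild-type muscle (WT total, n = 3), RNA recovered from knockout muscle by immunoprecipitation with a home-made IMP2 antibody (KO IP, n = 2), and the same from wild-type muscle (WT IP, n = 2). All mice were male, of the C57BL/6 strain and aged 6 weeks, and all had been fed a high-fat diet (HFD) for 2 weeks. The sample labels call the knockout IMP2 null, whereas the series description speaks of a deletion in muscle alone. The sources used here give neither the Cre driver nor the deleted part of the gene, and they do not say whether libraries came from separate animals. The p-values therefore speak only of the spread among these libraries, which may be technical.

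Oxidative phosphorylation passes electrons from NADH and succinate to oxygen and uses the proton gradient that this builds to make ATP. Complex II is succinate dehydrogenase, which is also an enzyme of the citric acid cycle. Complex III hands electrons to the mobile carrier cytochrome c, complex IV (cytochrome c oxidase) gives them to oxygen, and complex V is the ATP synthase. Some complex IV subunits come as tissue isoforms, and striated muscle uses Cox6a2, Cox7a1 and Cox8b where most other tissues use Cox6a1, Cox7a2 and Cox8a. Complexes III, IV and V also hold subunits encoded by mitochondrial DNA, and all 37 mitochondrially encoded genes were at 0 counts in every library, so these subunits were not analysed here.

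The promoters of isoform genes are shown because these pairs recur through the results and because promoters of respiratory genes are known for sites of the factors NRF1 and GABPA. Each window holds the 250 bases before the RefSeq start on GRCm38.p6, read 5′ to 3′ along the gene. The windows are chr5:115348959-115349208 (minus strand) for Cox6a1, chr7:30183921-30184170 (plus strand) for Cox7a1, chr9:79759854-79760103 (minus strand) for Cox7a2, chr7:140900447-140900696 (minus strand) for Cox8b and chr19:7217617-7217866 (minus strand) for Cox8a. Capitals mark matches on either strand to NRF1 (GCGCA, any base, GCGC), GABPA (CCGGAAG), ERR (AAGGTCA), YY1 (AANATGGC) or the E-box of myogenic factors (CANNTG).
Cox6a1: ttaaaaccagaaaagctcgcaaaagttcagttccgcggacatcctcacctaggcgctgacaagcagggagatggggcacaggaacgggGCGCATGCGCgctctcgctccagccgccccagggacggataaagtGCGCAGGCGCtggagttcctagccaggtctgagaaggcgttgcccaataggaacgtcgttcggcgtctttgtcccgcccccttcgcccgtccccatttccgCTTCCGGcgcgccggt
Cox7a1: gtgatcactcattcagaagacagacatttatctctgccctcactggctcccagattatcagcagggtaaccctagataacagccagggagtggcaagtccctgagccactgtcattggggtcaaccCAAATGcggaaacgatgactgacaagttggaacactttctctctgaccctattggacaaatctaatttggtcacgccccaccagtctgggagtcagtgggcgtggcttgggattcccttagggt
Cox7a2: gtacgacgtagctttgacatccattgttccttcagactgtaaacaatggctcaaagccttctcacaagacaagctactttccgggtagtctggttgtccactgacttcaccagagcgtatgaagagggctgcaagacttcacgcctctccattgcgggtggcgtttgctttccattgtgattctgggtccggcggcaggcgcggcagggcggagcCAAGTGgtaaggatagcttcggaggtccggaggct
Cox8b: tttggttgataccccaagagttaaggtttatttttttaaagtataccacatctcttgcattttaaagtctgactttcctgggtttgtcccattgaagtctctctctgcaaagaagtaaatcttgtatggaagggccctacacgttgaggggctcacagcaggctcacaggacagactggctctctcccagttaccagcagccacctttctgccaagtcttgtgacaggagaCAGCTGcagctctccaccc
Cox8a: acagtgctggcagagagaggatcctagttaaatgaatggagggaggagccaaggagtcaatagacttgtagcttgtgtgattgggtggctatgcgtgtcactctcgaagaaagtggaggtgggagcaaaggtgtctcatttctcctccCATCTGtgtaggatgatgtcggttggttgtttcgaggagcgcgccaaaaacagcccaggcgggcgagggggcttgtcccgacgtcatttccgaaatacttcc
In Cox6a1 the capitals are 2 NRF1 matches, whose last bases lie 153 and 108 bases before the start, and 1 GABPA match whose last base lies 10 bases before it. In each of the other windows they are 1 E-box. Of the 49 genes, 35 had their promoters searched, some with more than 1 start, which gave 38 windows. The remaining genes, Atp5a1 among them, were not searched as members, which does not show that the RefSeq table lacks their promoters. NRF1 matched 18.4% of these windows against 3.74% of all 32851 windows in the table, and GABPA matched 23.7% against 6.91%. ERR matched 5.26% against 4.08%, YY1 matched 2.63% against 3.91%, and the E-box matched 60.5% against 66.2%. A match describes letters and is not a site.

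Gene counts came to 9691580 to 10739792 per KO total library, 12299030 to 14809788 per WT total library, 917462 and 4037480 in KO IP, and 2159115 and 2547124 in WT IP. The 49 genes took 1.94% to 2.55% of the gene counts in a library. Igf2bp2 itself had 21, 19 and 21 counts in KO total and 35, 37 and 48 in WT total, and 9 and 25 in KO IP and 28 and 4 in WT IP. Relative to library size (CPM, with TMM factors) these were 2.52, 1.88 and 2.47 CPM in KO total and 2.51, 2.86 and 3.35 CPM in WT total, and 8.65 and 5.19 CPM in KO IP and 11.8 and 1.56 CPM in WT IP. With TMM factors KO and WT overlapped in both kinds of RNA. In total RNA this rested on KO library 1, at 2.52 CPM, which lay just above WT library 1, at 2.51 CPM. With scaling by library size alone, every KO total value lay below every WT total value. Whether the level of the targeted gene separated the genotypes in total RNA thus depended on the scaling. With the deleted part not given, this level does not check the labels. The 10 markers of skeletal muscle fibres summed to 227780, 193950 and 260580 CPM in KO total and 178270, 189190 and 100760 CPM in WT total. WT total library 2 stood apart: Ucp1, the uncoupling protein of brown fat, had 2919 counts there and no more than 53 in any other library of total RNA, and the 5 brown adipocyte markers summed to 532 CPM there, whereas the remaining total RNA libraries did not exceed 14.6 CPM. In KO total library 1, Ins2, an insulin gene of pancreatic islets, had 11628 counts, and no other library of total RNA had more than 10. Xist, an RNA made in female cells, had 46, 1 and 0 counts in KO total and 0, 0 and 3 in WT total. It had 1 and 2 in KO IP and 0 and 4 in WT IP. Brown fat and islet transcripts were in every IP library, where Ins2 had 220 and 420 counts in KO IP and 57 and 525 in WT IP, and Ucp1 had 44 and 97 in KO IP and 17 and 176 in WT IP. Summed brown adipocyte markers were 125 and 57.3 CPM in KO IP and 25.7 and 187 CPM in WT IP, and the 7 islet markers summed to 374 and 144 CPM in KO IP and 43.7 and 345 CPM in WT IP.

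Many respiratory genes have processed pseudogenes, and reads that align to several places are not assigned to a gene. Lines for such reads held 26.1% to 43.3% of the reads in a library. Of the 49 transcripts, 26 shared none of their 50-base windows with a transcript of a gene elsewhere in GENCODE vM21, while 23 shared some. More than 50% was shared by Atp5g2 (87.4%), which encodes the c-ring subunit, by Atp5l (68.5%), a membrane subunit of the ATP synthase, and by Cox7c (53.0%), a small subunit of complex IV. Cox7c had 4 and 6 counts in KO IP and 17 and 23 in WT IP, and Atp5l had at most 95 counts in any library. The values of these genes are uncertain for this reason. Below that limit, Atp5h, a stalk subunit of ATP synthase, shared 47.9% of its windows, Uqcrb 43.2%, Cycs 28.5% and Cox6a1 12.3%. No window was shared by Sdha, Uqcrc1, Uqcrc2, Atp5a1, Atp5e, Cox4i1, Cox6a2, Cox7a1, Cox7a2, Cox8a or Cox8b.

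Cox8c and Cox7b2, isoforms known from testis, were nearly absent from the counts. Cox8c had 0 counts in all 10 libraries, which in counting error alone allows at most 0.3095 CPM (total RNA) or 3.27 CPM (IP), depending on depth. Cox7b2 had 1 count, in WT total library 1. The other 47 genes entered the test in total RNA, which was a quasi-likelihood F test of counts in edgeR with Benjamini-Hochberg adjustment over all genes tested and a threshold of 0.05.

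Levels of different genes are compared per kilobase of exon union. The muscle isoform Cox8b had the highest mean level of the set in total RNA, at 1391 ± 552 in KO and 1462 ± 521 in WT (CPM per kilobase, SD, n = 3 each). Cox6a2 stood at 1164 ± 267 in KO and 832 ± 195 in WT, and Cox7a1 at 865 ± 374 in KO and 731 ± 81.3 in WT. Atp5a1, the alpha subunit of the catalytic head of ATP synthase, reached 1165 ± 37.7 in KO and 1114 ± 186 in WT, and Atp5b, the beta subunit, 1108 ± 86.3 in KO and 1042 ± 106 in WT. The mean ± SD ranges of Cox8b, Cox6a2, Atp5a1 and Atp5b overlapped within each genotype, so their order is not settled. In complex III the highest mean was that of Uqcr10, a small subunit, at 554 ± 212 in KO and 609.7 ± 218 in WT, and Uqcrfs1, the Rieske iron-sulphur protein, lay within its SD at 515 ± 72.4 in KO and 530.5 ± 35.7 in WT. In complex II, Sdhd, a membrane anchor, was at 305 ± 41.6 in KO and 313 ± 25.02 in WT, and Sdha, the flavoprotein that oxidizes succinate, at 295 ± 29.9 in KO and 336 ± 9.68 in WT. Cycs, which encodes cytochrome c, had only 3.17 ± 0.517 in KO and 5.88 ± 4.18 in WT. With the length of a representative transcript instead, a scale added after the data were seen, Atp5b came first at 2449 ± 191 in KO and 2305 ± 234 in WT. In complex III the highest mean in KO was then that of Uqcrc1, at 785 ± 84.9 in KO and 717 ± 98.7 in WT, beside 746 ± 285 in KO and 820.4 ± 293 in WT for Uqcr10.

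By complex, the shares of the counts of the set overlapped between KO and WT total RNA except for complex III, which took 19.2% to 19.4% in KO total and 19.6% to 20.4% in WT total, a difference that was not tested. Complex V took 50.98% to 53.5% of the counts of the set in KO total and 50.2% to 52.1% in WT total, and complex IV took 16.4% to 20.6% in KO total and 16.4% to 19.3% in WT total. In the IP libraries complex IV took more, 24.6% and 24.4% in KO IP and 27.9% and 27.9% in WT IP. Complex V took less there, 47.2% and 49.5% in KO IP and 45.2% and 45.3% in WT IP. These are shares of reads, which depend on transcript length as well as on the number of mRNA molecules.

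In total RNA, no subunit passed the test between KO and WT, and 0 of all 13169 genes passed it (0% of genes). DESeq2 called 5 genes of all and 0 of the set. The log2 fold change (KO over WT) was above 0 for 28 of the 47 genes and below 0 for 19 (48% of all genes were above), with a median of 0.06 beside -0.01 over all genes. With scaling by library size alone the split was 9 above and 38 below 0, with a median of -0.14 beside -0.23 over all genes. An unadjusted p under 0.05 was reached by 1 gene of the set, Cox6a1, which was lower in KO, and by 4.32% of all genes (2.29% lower). By complex, the values above 0 numbered 1 of 4 in complex II, 5 of 9 in complex III, 8 of 16 in complex IV and 14 of 17 in complex V. In bulk RNA, less mRNA per fibre and fewer fibres in the sample cannot be told apart.

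The libraries of 1 group differed among themselves. KO total library 3 had the highest level of the 6 total RNA libraries for 32 of the 47 genes, and WT total library 3 the lowest for 28. Atp5o, a stalk subunit of ATP synthase, had 413, 412 and 680.4 CPM in KO total and 405, 449 and 229 CPM in WT total, a log2 fold change of 0.47 ± 0.29 (SE). Library 3 was the highest KO value and the lowest WT value there, and the other libraries overlapped. The summed fibre markers were also highest in KO total library 3, at 260580 CPM, and lowest in WT total library 3, at 100760 CPM, and 9 of the 10 fibre markers were above 0. A list of 10 slow fibre markers summed to 259, 297 and 577 CPM in KO total and 199, 297 and 568 CPM in WT total. Library 3 was thus the highest in both genotypes there. The part of either list in the subunit values was not tested. Without these 2 libraries, an alternative added after the data were seen, 8 of the 47 genes were above 0 and 39 below, with a median of -0.21, and the value of Atp5o was -0.05. Without KO total library 1 and WT total library 2, those with transcripts of other tissues, 41 were above 0 and 6 below, with a median of 0.29. Leaving out KO total library 3 alone gave a median of -0.15, and leaving out WT total library 2 alone gave 0.21. The direction of the set in total RNA thus depended on which libraries were kept.

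**Figure D1:**
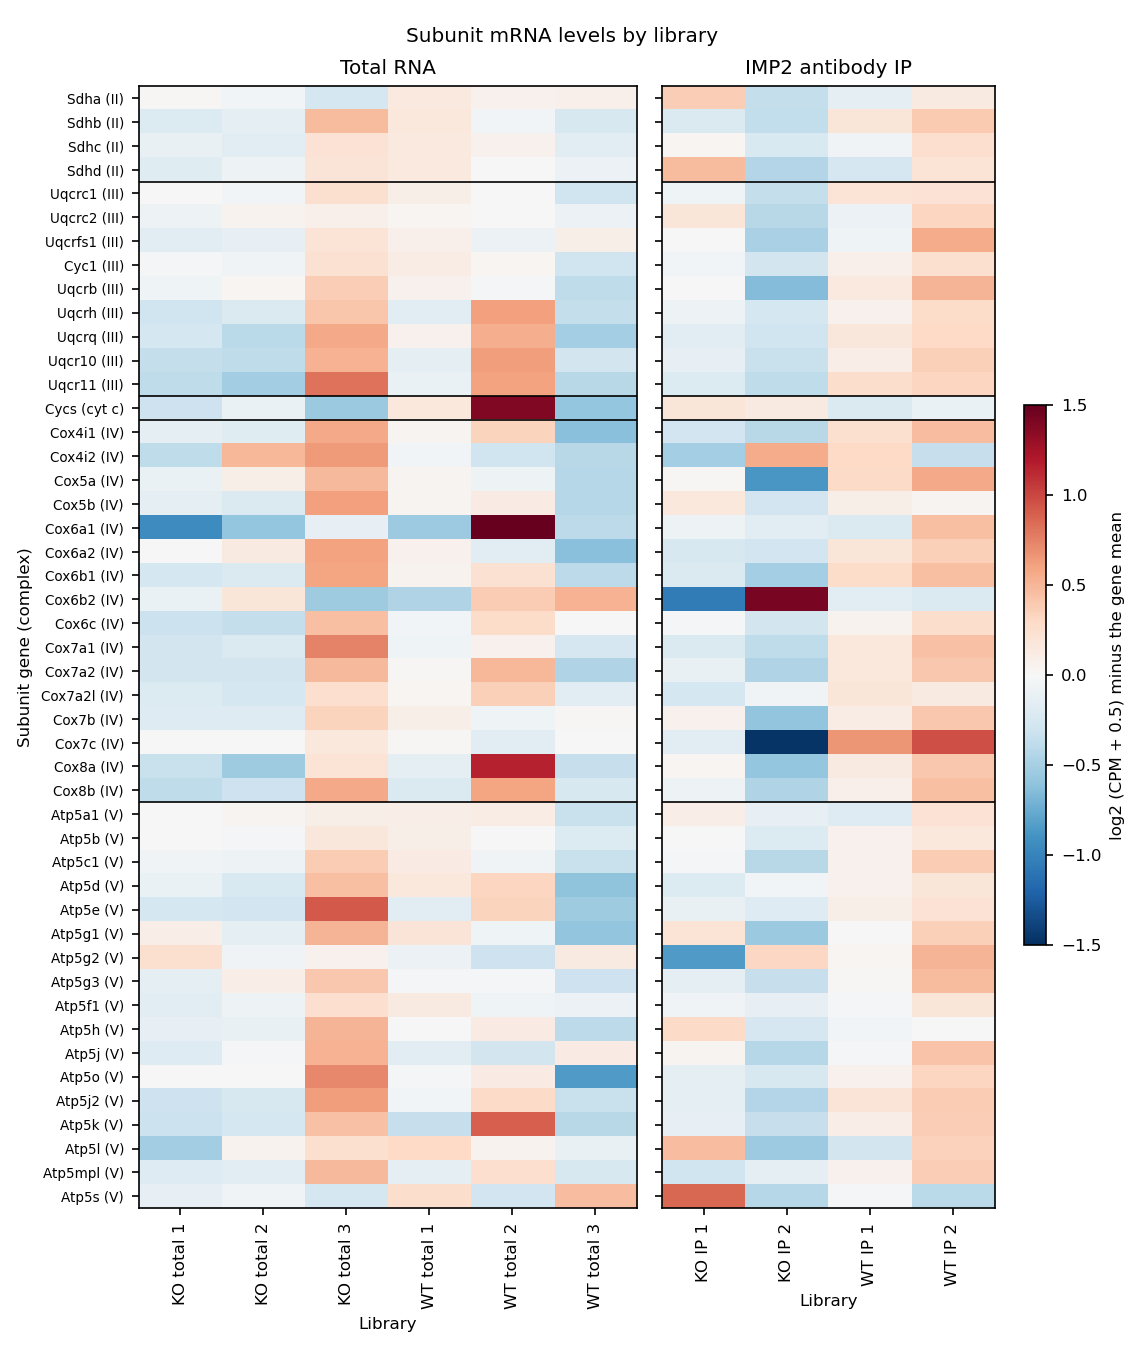
Level of each of the 47 genes in each library, as log2 (CPM + 0.5) minus the gene's mean over the libraries of its panel (total RNA at left, IP at right), with colours ending at 1.5 in either direction. KO total 3 is high for most genes, WT total 2 is high for Cox6a1, Cox8a and Cycs, and KO IP 2 is low for most genes.

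In complex II, Sdha had 1312, 1262 and 1078 CPM in KO total and 1431, 1358 and 1367 CPM in WT total. It was the only gene of the set whose groups did not overlap, lower in KO, where 4.56% of all genes were apart in that direction. Its log2 fold change of -0.19 ± 0.17 (SE) did not pass (edgeR adjusted p = 0.897). Sdhb, the iron-sulphur subunit, had 549.6, 573 and 882 CPM in KO total and 710.3, 620.1 and 538 CPM in WT total. The membrane anchor Sdhc had 324, 313 and 406 CPM in KO total and 385, 365 and 313 CPM in WT total, and Sdhd had 334, 358 and 432 CPM in KO total and 418, 381 and 357 CPM in WT total. For these 3 genes KO and WT overlapped.

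In complex III, Cyc1, the cytochrome that passes electrons on to cytochrome c, had 814, 797 and 969 CPM in KO total and 895, 846 and 674 CPM in WT total. The smallest p-values of the complex belonged to Uqcrb, a small subunit that binds quinone, which had 86.9, 92.8 and 117 CPM in KO total and 94.9, 90.2 and 69.99 CPM in WT total (log2 fold change 0.21 ± 0.18, SE, edgeR adjusted p = 0.897), and to Uqcrc1, a core protein. Uqcrc1 had 1237, 1198 and 1459 CPM in KO total and 1313, 1239.6 and 1001 CPM in WT total (0.13 ± 0.19, edgeR adjusted p = 0.918). KO and WT overlapped for each, and the values for Uqcrb and Uqcrc1 were -0.04 and -0.07 without library 3 of each genotype. Cycs had 10.8, 12.6 and 9.04 CPM in KO total and 15.1, 36.04 and 8.86 CPM in WT total, and its high WT value was that of library 2. Its log2 fold change was -0.89 ± 0.44 (edgeR adjusted p = 0.897).

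Complex IV held both ends of the range. The lowest fold change was that of Cox6a1, with 21.7, 28.1 and 38.9 CPM in KO total and 28.8, 259.5 and 32.2 CPM in WT total. Only WT total library 2 was high, with 3363 counts, while the rest had 181 to 461. The log2 fold change of -1.86 ± 0.76 (SE, unadjusted p = 0.0372 and adjusted p = 0.897 by edgeR) was 0.13 without that library and KO total library 1. Cox8a was likewise high in that library, with 28.8, 25.1 and 42.2 CPM in KO total and 33.2, 81.8 and 28.6 CPM in WT total. Its log2 fold change of -0.58 ± 0.38 was 0.06 without WT total library 2. The part of brown fat RNA in these values was not tested.

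At the upper end of complex IV, Cox4i2, an isoform of subunit 4 known from lung, had 2.88, 5.74 and 6.34 CPM in KO total and 3.79, 3.09 and 2.79 CPM in WT total (log2 fold change 0.63 ± 0.32, SE). Its partner Cox4i1, the common isoform, had 709, 689 and 1157 CPM in KO total and 799, 981 and 503 CPM in WT total. Cox6a2 had 657, 719.6 and 998 CPM in KO total and 689, 583 and 426 CPM in WT total (0.48 ± 0.23). KO and WT overlapped for each, and the edgeR adjusted p was 0.897 for Cox4i2 and for Cox6a2. Cox6b1, the common isoform of a subunit that links the monomers of the dimer, had 353, 363 and 638 CPM in KO total and 438, 497 and 321 CPM in WT total. Cox6b2, its testis isoform, had 0.961, 1.29 and 0.587 CPM in KO total and 0.644, 1.54 and 1.74 CPM in WT total.

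The remaining isoform genes gave overlapping values as well. Cox7a1 had 340.4, 354 and 694 CPM in KO total and 396, 432 and 346 CPM in WT total, and its partner Cox7a2 had 158, 158 and 269 CPM in KO total and 193, 269 and 139.9 CPM in WT total. Cox7a2l, which helps to link complexes III and IV into supercomplexes, had 54.4, 52.6 and 75.2 CPM in KO total and 64.5, 80.7 and 55.8 CPM in WT total. Cox8b had 376, 396 and 729.9 CPM in KO total and 422, 743 and 415 CPM in WT total. Library 3 was the highest KO library in each of these 4 genes, and library 2, with its brown fat transcripts, was the highest WT library. Any part of brown fat RNA in these values was not tested.

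Within a library, the ratio of isoforms needs no scaling. The muscle isoform Cox6a2 made up 96.8%, 96.2% and 96.3% of the counts of its pair in KO total and 95.99%, 69.2% and 92.98% in WT total, with library 2 the low value, and 87.3% and 87.6% in KO IP and 91.02% and 87.8% in WT IP. Cox8b made up 92.9%, 94.04% and 94.5% of its pair in KO total and 92.7%, 90.1% and 93.5% in WT total, and 90.5% and 91.9% in KO IP and 90.9% and 91.4% in WT IP. Cox7a1 made up less of its pair, 68.3%, 69.2% and 72.1% in KO total and 67.3%, 61.7% and 71.2% in WT total, and 67.8% and 70.4% in KO IP and 69.5% and 69.96% in WT IP. The muscle isoform thus took most of the counts of each pair in every library.

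No difference in the log2 ratio of the isoforms between KO and WT total RNA passed an exact test. For Cox6a2 to Cox6a1 it was 4.76 ± 0.14 in KO total and 3.16 ± 1.78 in WT total (SD, n = 3 each). The difference of 1.60 had p = 0.1 by a two-sided exact permutation test, the smallest p that 3 against 3 can give. The exact permutation p was 0.4 for Cox7a1 to Cox7a2 (difference 0.21) and 0.2 for Cox8b to Cox8a (difference 0.36), and adjustment over the 3 pairs gave 0.3, 0.4 and 0.3. Between KO IP and WT IP the differences were -0.30 for Cox6a2, -0.04 for Cox7a1 and 0.02 for Cox8b, and 2 against 2 cannot go below an exact p of 0.33.

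Over both genotypes, the isoform log2 ratio in the 4 IP libraries less that in the 6 total RNA libraries was -1.01 for Cox6a2 to Cox6a1 and -0.38 for Cox8b to Cox8a. The exact permutation p was 0.219 and 0.0619 (0.329 and 0.186 adjusted over the 3 pairs). Without WT total library 2 these differences were -1.57 and -0.50, with unadjusted exact permutation p of 0.0159 and 0.00794. No other library, when left out, gave an unadjusted p under 0.05 for either pair. All 4 IP libraries, which also held brown fat transcripts, stayed in. Summed brown adipocyte markers were 125 and 57.3 CPM in KO IP against 3.604 to 5.04 CPM in KO total, and their part in these ratios was not tested. For Cox7a1 to Cox7a2 the difference was 0.07 (exact permutation p = 0.676).

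**Figure D2:**
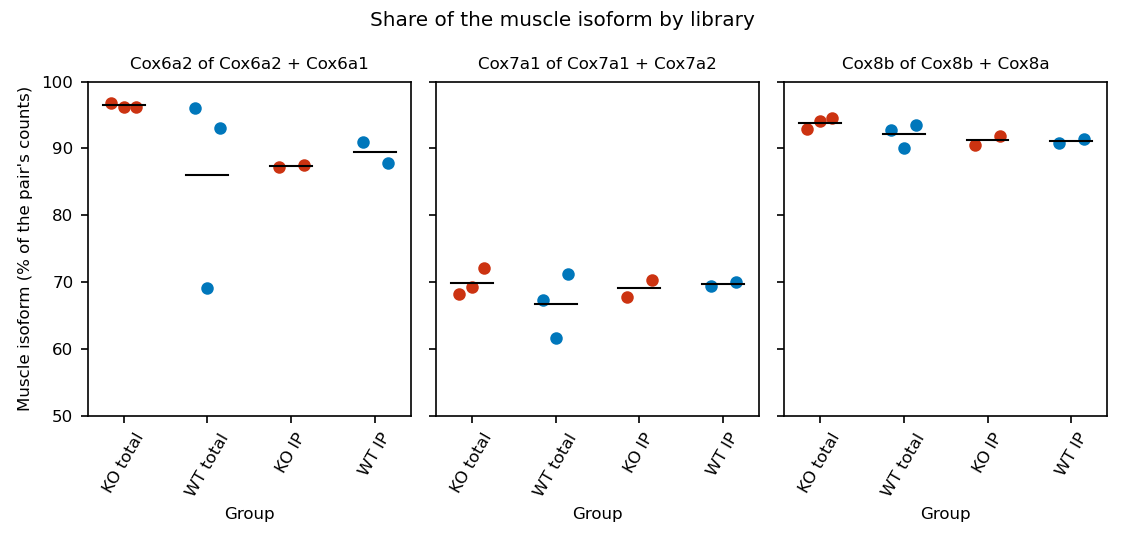
Share of the muscle isoform in the counts of its pair, in percent on an axis that runs between 50 and 100, with 1 point per library (KO and WT in separate colours) and a line at the group mean. WT total library 2 is the lowest point among total RNA libraries for each pair, at 69.2% for Cox6a2, 61.7% for Cox7a1 and 90.1% for Cox8b.

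In complex V, 14 of 17 genes had a log2 fold change above 0 in total RNA, with a median of 0.10, and 0 passed. Atp5a1 had 3538, 3642 and 3773 CPM in KO total and 3816, 3843 and 2819.9 CPM in WT total, and Atp5b had 4521, 4445 and 5113 CPM in KO total and 4814, 4504 and 3929 CPM in WT total. Atp5s, named for coupling factor B, had 12.6, 13.3 and 11.4 CPM in KO total and 16.7, 11.2 and 19.1 CPM in WT total (log2 fold change -0.34 ± 0.22, SE, edgeR adjusted p = 0.897). Atp5k, a membrane subunit, had 191, 199 and 323 CPM in KO total and 188, 446 and 179 CPM in WT total, with the highest value again in WT total library 2. KO and WT overlapped for each.

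In the IP, the subunit genes were at lower levels in KO than in WT almost throughout, though none passed the edgeR test. Of the 44 genes tested, 38 had a log2 fold change below 0 and 6 above (49.1% of all genes were below), with a median of -0.40 beside 0.01 over all genes. Of all 10730 genes tested 0 passed (0% of genes), and 10.5% had an unadjusted p under 0.05. Among the 44, 14 had such a p, all of them lower in KO, where 4.83% of all genes were lower with such a p. DESeq2 called 57 genes of all and 2 of the set, and limma called 3 and 0. The groups did not overlap for 30 genes of the set that were lower in KO and for 1 that was higher, and for 20.6% and 20.5% of all genes. With scaling by library size alone the split was 8 above and 36 below 0, with a median of -0.26 beside 0.16 over all genes.

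By complex, all 9 complex III genes were below 0 (median -0.46), as were 14 of 15 complex IV genes (median -0.53), 13 of 15 complex V genes (median -0.36) and 2 of 4 complex II genes (median -0.07). The smallest p was that of Cox6b1, with 385 and 314 CPM in KO IP and 539 and 610.1 CPM in WT IP, a log2 fold change of -0.71 ± 0.22 (SE, adjusted p = 0.265 by edgeR). Cox4i1 followed, with 914 and 838 CPM in KO IP and 1316 and 1533 CPM in WT IP (-0.69 ± 0.22, edgeR adjusted p = 0.278). For both genes the KO IP values lay below both WT IP values. Cox5a, a subunit on the matrix side of the oxidase, had 115 and 62.2 CPM in KO IP and 140.1 and 169.9 CPM in WT IP (-0.84 ± 0.28, edgeR adjusted p = 0.294). Cox7c had the lowest fold change, -1.98 ± 0.81 (edgeR adjusted p = 0.405), on the few counts given above. These 2 genes were likewise apart, with the lowest value of Cox5a in KO IP library 2.

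The muscle isoforms were apart between the IP groups too. Cox6a2 had 706 and 684 CPM in KO IP and 947 and 1067 CPM in WT IP, Cox7a1 had 468 and 416 CPM in KO IP and 609 and 737 CPM in WT IP, and Cox8b had 706 and 549 CPM in KO IP and 789.9 and 1019 CPM in WT IP. Their log2 fold changes were -0.53, -0.60 and -0.52, with edgeR adjusted p of 0.409, 0.341 and 0.455. Of the common isoforms, Cox7a2 had 222 and 175 CPM in KO IP and 267 and 316 CPM in WT IP and Cox8a had 73.98 and 48.3 CPM in KO IP and 79.5 and 95.8 CPM in WT IP, both apart, whereas Cox6a1, with 103 and 96.9 CPM in KO IP and 93.4 and 148 CPM in WT IP, overlapped. Cox7a2l had 105 and 121 CPM in KO IP and 142 and 138 CPM in WT IP. Cox4i2 had 4.804 and 10.6 CPM in KO IP and 8.83 and 5.45 CPM in WT IP, which overlapped (0.24 ± 0.59, edgeR adjusted p = 0.927). Cox6b2 had 0 and 11 counts in KO IP and 1 and 1 in WT IP and was too low to test.

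In complex III the smallest p-values belonged to Uqcr11, a small subunit, with 261 and 231 CPM in KO IP and 364 and 379 CPM in WT IP (log2 fold change -0.59 ± 0.22, SE), and to Uqcrb, with 76.9 and 48.96 CPM in KO IP and 85.4 and 110.3 CPM in WT IP (-0.67 ± 0.28). Cyc1 had 532 and 454 CPM in KO IP and 576 and 645 CPM in WT IP. In complex V they belonged to Atp5j2, a membrane subunit, with 263 and 213 CPM in KO IP and 329 and 376 CPM in WT IP (-0.56 ± 0.22), and to Atp5g3, a c-ring gene, with 758 and 658 CPM in KO IP and 847 and 1159 CPM in WT IP (-0.50 ± 0.23). The edgeR adjusted p was 0.336 for Uqcr11, 0.405 for Uqcrb, 0.384 for Atp5j2 and 0.475 for Atp5g3. All 5 of these genes were apart, with KO below WT.

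Complex II was divided. Sdhb had 430.4 and 388 CPM in KO IP and 569 and 658 CPM in WT IP and was apart (log2 fold change -0.58 ± 0.22, SE, edgeR adjusted p = 0.359). Sdha had 598 and 358 CPM in KO IP and 417 and 506 CPM in WT IP, Sdhc had 444 and 369 CPM in KO IP and 418 and 515 CPM in WT IP, and Sdhd had 369.9 and 196 CPM in KO IP and 224 and 307 CPM in WT IP, and these 3 overlapped. The highest fold changes were those of Atp5s, with 25.9 and 10.4 CPM in KO IP and 13.9 and 10.5 CPM in WT IP (0.46 ± 0.50), which overlapped and was high in KO IP library 1 alone, and of Cycs, with 61.5 and 59.5 CPM in KO IP and 46.7 and 50.6 CPM in WT IP (0.32 ± 0.25, edgeR adjusted p = 0.702). Cycs was the 1 gene whose KO values lay above both WT values. Without KO IP library 1 the value of Atp5s was -0.24.

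KO IP library 2 had the lowest level of the 4 IP libraries for 37 of the 44 genes and WT IP library 2 the highest for 36. Leaving out each IP library in turn gave medians between -0.56 and -0.25. Summed muscle fibre markers were 94417 and 74374 CPM in KO IP and 98311 and 118720 CPM in WT IP, and 8 of the 10 were below 0. The 5 red blood cell markers summed to 483 and 778 CPM in KO IP and 156 and 310.5 CPM in WT IP, and all 4 that were tested had an unadjusted p under 0.05, higher in KO. KO IP library 1 had the fewest gene counts, 917462. The part of these differences in the subunit values was not tested. Among the 23 tested genes that shared no 50-base window with other genes, 19 were below 0 and the median was -0.46.

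**Figure D3:**
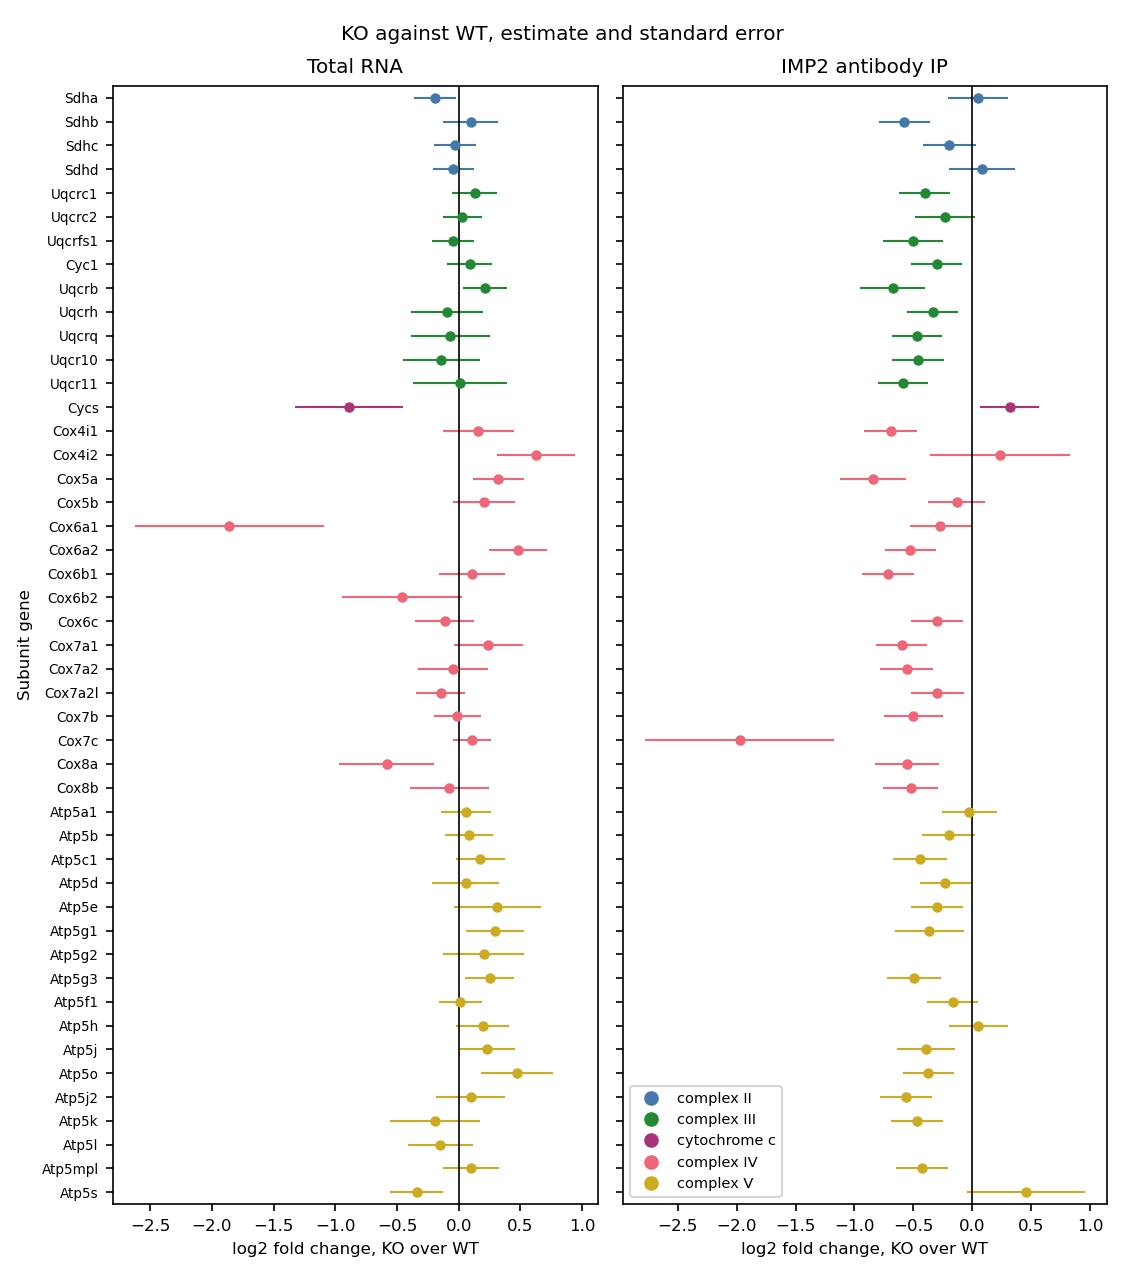
Log2 fold change of KO over WT for each gene with its standard error, in total RNA at left (6 libraries) and in the IP at right (4 libraries), coloured by complex. In total RNA the points lie on both sides of 0 (28 above, 19 below), and in the IP 38 of 44 lie below it.

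IP and total RNA of the same genotype differed in many genes. In KO muscle 21 of the 47 subunit genes passed the edgeR test between IP and total RNA, 5 higher and 16 lower in the IP, where 36.5% of all genes passed, 17.7% higher and 18.8% lower. In WT muscle 20 passed, 10 higher and 10 lower, where 37.0% of all genes passed, 17.6% higher and 19.4% lower. The median log2 fold change (IP over total) of the set was -0.37 in KO and 0.18 in WT, beside 0.04 and -0.05 over all genes. With scaling by library size alone, 16 rose and 9 fell in KO (median 0.08 beside 0.47 over all genes), and 16 rose and 10 fell in WT (median 0.27 beside 0.01). Without KO IP library 2 the calls in KO were 1 higher and 9 lower. In WT they were 4 higher and 7 lower without WT IP library 1, and 4 and 9 without WT IP library 2. Of the 10 muscle fibre markers, 0 rose and 7 fell in KO IP, and 1 rose and 5 fell in WT IP. Their part in the subunit values was not tested.

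A group of 7 core and catalytic subunits, named after their values were seen, fell in the IP of both genotypes. Sdhb and Cyc1, also core subunits, passed as lower in KO (-0.71 ± 0.25 and -0.80 ± 0.22) and did not pass in WT, where Sdhb had -0.02 (edgeR adjusted p = 0.954) and Cyc1 -0.40 (edgeR adjusted p = 0.156). Uqcrc2, a core protein of complex III, had 172 and 113 CPM in KO IP and 741 to 824 CPM in KO total, and 142 and 189 CPM in WT IP and 734 to 801 CPM in WT total. It fell, with log2 fold changes of -2.49 ± 0.25 in KO and -2.22 ± 0.24 in WT (SE, edgeR adjusted p = 1.79e-05 and 2.15e-05). Uqcrc1 fell (-1.56 ± 0.23 in KO and -1.02 ± 0.22 in WT), and Uqcrfs1 did so as well (-1.59 ± 0.25 and -1.13 ± 0.25). Sdha had 598 and 358 CPM in KO IP and 1078 to 1312 CPM in KO total, and 417 and 506 CPM in WT IP and 1358 to 1431 CPM in WT total. It fell, at -1.35 ± 0.25 in KO and -1.59 ± 0.25 in WT (edgeR adjusted p = 0.000895 and 0.000295). Of the ATP synthase head, Atp5b fell (-1.58 ± 0.24 in KO and -1.28 ± 0.23 in WT). Atp5a1 had -1.25 ± 0.25 in KO and -1.16 ± 0.25 in WT, and Atp5c1, the gamma subunit that turns inside the head, -1.495 ± 0.25 and -0.87 ± 0.24, all of which passed. For these 7 genes every IP value lay below every total RNA value of the same genotype, which their choice after the values were seen made likely. Over the set this held for 19 of 47 genes in KO and 16 in WT. It held for 31.3% of all genes in KO and 32.5% in WT.

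The genes that rose in the IP of both genotypes were Cycs, Cox7a2l, Atp5d, Atp5e and Atp5mpl. Cycs had 61.5 and 59.5 CPM in KO IP and 9.04 to 12.6 CPM in KO total, and 46.7 and 50.6 CPM in WT IP and 8.86 to 36.04 CPM in WT total. It rose by 2.48 ± 0.42 on the log2 scale in KO (SE, edgeR adjusted p = 0.000521) and by 1.29 ± 0.41 in WT (edgeR adjusted p = 0.0236). Brown adipocyte markers, which were high in the total RNA library where Cycs was high, summed to 125 and 57.3 CPM in KO IP and 3.604 to 5.04 CPM in KO total, and to 25.7 and 187 CPM in WT IP and 5.37 to 532 CPM in WT total. Of the 5, 3 rose in KO IP (Ucp1, Cidea and Dio2) and 1 in WT IP (Dio2), and their part in the values of Cycs, and of Cox6a1 given further on, was not tested. The WT call of Cycs was lost without WT total library 1, WT IP library 1 or WT IP library 2 (edgeR adjusted p of 0.0618, 0.08104 and 0.145). Atp5e, the epsilon subunit of the head, which has the shortest coding sequence of the set, had 1491 and 1415 CPM in KO IP and 398 to 921 CPM in KO total, and 1716 and 1877 CPM in WT IP and 337 to 613 CPM in WT total. It rose by 1.34 ± 0.34 in KO and 1.96 ± 0.34 in WT (edgeR adjusted p = 0.00731 and 0.000574), and the KO call was lost without KO IP library 2 (edgeR adjusted p = 0.05503). Atp5d, the delta subunit of the head, rose by 0.98 ± 0.28 in KO and 1.28 ± 0.28 in WT, Cox7a2l by 0.90 ± 0.22 and 1.06 ± 0.21, and Atp5mpl, a small proteolipid, by 0.66 ± 0.24 and 1.20 ± 0.24. The KO call of Atp5mpl was near the threshold (edgeR adjusted p = 0.0467) and held in 9 of 18 alternatives tried.

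A further 5 genes passed as higher in WT and did not pass in KO. The log2 fold changes of Uqcr11, Uqcr10, Cox4i1, Cox6a2 and Cox7a1 were 1.09, 0.90, 0.90, 0.83 and 0.78 in WT, and 0.47, 0.57, 0.04, -0.19 and -0.07 in KO. The test of the difference between genotypes, given below as the interaction, passed for none of them. Cox6a1 had a value of 1.75 ± 0.70 (SE) in KO that missed the threshold (edgeR adjusted p = 0.0635) and 0.18 ± 0.68 in WT, where total library 2 was high. Cox6b2 had 1 and 1 counts in WT IP and 9, 20 and 25 in WT total.

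Cox5a, Cox7c and Atp5f1, with coding sequences of 438, 189 and 768 bases, also fell in both genotypes. Atp5f1, a stalk subunit of ATP synthase, fell least, at -0.79 ± 0.21 in KO and -0.60 ± 0.20 in WT (log2, SE, edgeR adjusted p = 0.00899 and 0.0338). Cox5a had 115 and 62.2 CPM in KO IP and 408 to 617 CPM in KO total, and 140.1 and 169.9 CPM in WT IP and 325 to 450 CPM in WT total, and fell, at -2.53 ± 0.30 in KO and -1.36 ± 0.28 in WT (log2, SE, edgeR adjusted p = 4.76e-05 and 0.001999). Cox7c had 3.84 and 1.24 CPM in KO IP and 18.1 to 20.3 CPM in KO total, and 7.15 and 8.96 CPM in WT IP and 16.1 to 18.3 CPM in WT total, and fell (-3.37 ± 0.40 in KO and -1.11 ± 0.30 in WT). Of the genes called in KO, 9 that fell and 1 that rose (Cycs) passed with the same sign in all 18 alternatives tried. In WT, 7 that fell and 4 that rose (Cox7a2l, Atp5d, Atp5e and Atp5mpl) did so. Sdha, Uqcrc1, Uqcrc2, Uqcrfs1, Cox5a, Atp5a1 and Atp5b were the 7 in WT, and they were among the 9 in KO.

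The genes that fell were mostly those with long coding sequences. All 9 members with a coding sequence of 800 bases or more, a limit chosen after the values were seen, passed as lower in KO IP (median log2 fold change -1.495), as did 7 of 9 in WT IP (median -1.13). Of all protein-coding genes of that length, 20.9% fell in KO and 22.8% in WT, with medians of -0.03 and -0.17. Among the 38 shorter members, 5 rose and 7 fell in KO (median 0.03), and 10 rose and 3 fell in WT (median 0.44). Of all coding genes under that length, 26.5% rose and 12.3% fell in KO, and 33.3% rose and 9.53% fell in WT. Their median was 0.32 in KO and 0.52 in WT. Under scaling by library size alone the 9 long members had medians of -1.06 in KO and -1.09 in WT.

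Across the 47 genes, Spearman's rho of the fold change with coding length was -0.50 in KO and -0.55 in WT, and across 13109 coding genes -0.20 and -0.31. The rho with the length of the 3′ untranslated region was -0.02 in KO and -0.07 in WT, and that with the GC content of the transcript 0.37 and 0.35. With the mean level in total RNA it was -0.42 in KO and -0.21 in WT. These correlations run across genes measured in the same libraries, which are not independent replicates, and the fold change contains the total RNA level.

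**Figure D4:**
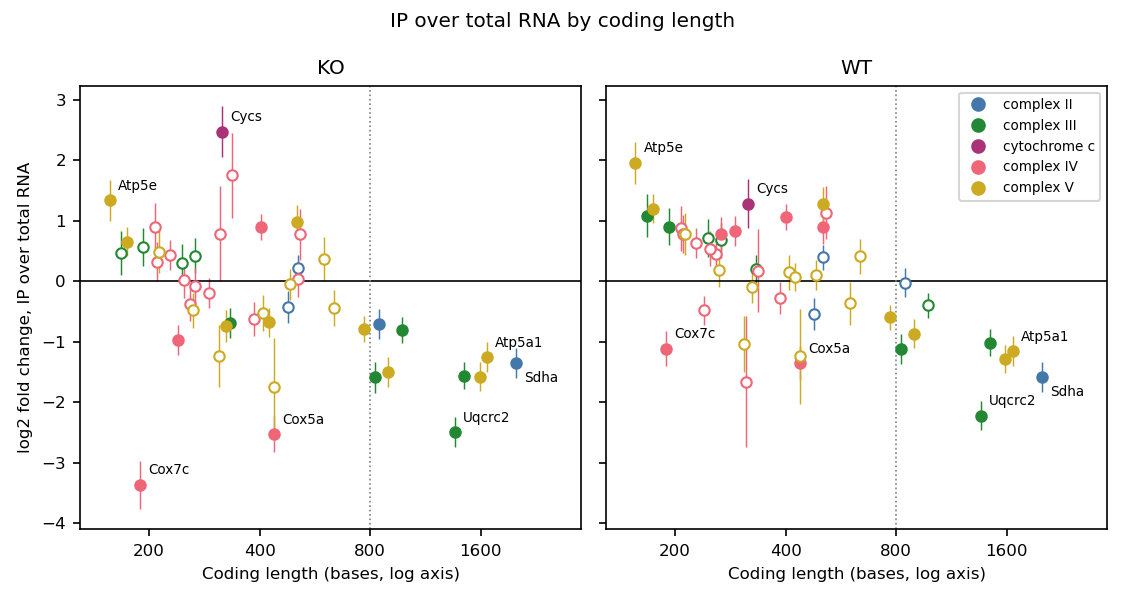
Log2 fold change of IP over total RNA with its standard error against coding length in bases (log axis), for KO at left and WT at right. Points are genes coloured by complex, filled where the edgeR adjusted p is under 0.05, all genes to the right of the dotted line at 800 bases lie below 0, and Cox7c and Cox5a are low points to its left.

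Whether the step between IP and total RNA differed between genotypes was tested as the interaction, the log2 fold change of KO IP over KO total minus that of WT IP over WT total. No subunit passed, and 1 of 14399 genes did (0.00694%), while DESeq2 called 17 genes of all and 0 of the set. The value was below 0 for 40 of the 47 genes and above 0 for 7 (48.7% of all genes were below), with a median of -0.41 beside 0.02 over all genes. With scaling by library size alone 21 genes were above and 26 below 0, with a median of -0.05 beside 0.40 over all genes. Without KO total library 3 the median was -0.17, and without KO total library 1 and WT total library 2 it was -0.68. An unadjusted p under 0.05 was reached by 5 of the set, all below 0, and by 11.8% of all genes, 5.38% being below 0. With same-numbered IP and total RNA libraries taken as pairs, which the labels do not state, the lean was not seen. That fit also takes total RNA library 3 of each genotype out of the value, because no IP library has that number. Pairing and the loss of these libraries cannot be told apart there. Of the set 22 genes were then above and 25 below 0, with a median of -0.04 beside 0.03 over all genes. In that fit 2 subunits, both above 0, were among 147 genes of all that passed the edgeR test.

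The smallest p of the interaction was that of Cox7c (-2.26 ± 0.51, SE), followed by Cox5a (-1.17 ± 0.39) and Cox6a2 (-1.02 ± 0.35), each with an edgeR adjusted p of 0.342. In complex III, Uqcrb stood at -0.90 ± 0.34 and Uqcrc1 at -0.54 ± 0.30, and in complex V Atp5g3 at -0.76 ± 0.33 and Atp5o at -0.86 ± 0.42. The edgeR adjusted p of these 4 genes was 0.352, 0.486, 0.395 and 0.427. The highest values were those of Cox6b2 (2.45 ± 1.34), which had at most 25 counts in a library and 1 in each WT IP library, Cox6a1 (1.57 ± 0.99, or -0.24 without WT total library 2) and Cycs (1.19 ± 0.59). The value of Cox6b2 was -4.32 without KO IP library 2, the only KO IP library in which it had counts.

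Genes that build or serve the complexes were taken from 3 lists. In total RNA 0 of 34 assembly factors, 0 of 16 regulators of mitochondrial genes and 0 of 10 neighbouring carriers and subunits passed. The smallest p-values belonged to Cox17, a copper chaperone of complex IV (log2 fold change -1.18 ± 0.44, SE), Lyrm7, which delivers the Rieske protein to complex III (-0.53 ± 0.26), and Atpaf1, an assembly factor of the ATP synthase head (-0.34 ± 0.18). Among regulators they belonged to Gabpb1 (0.33 ± 0.18) and Gabpa (-0.26 ± 0.15), the partners that form GABP, and to Mterf3 (-0.49 ± 0.30). Among neighbours they belonged to Hccs, which attaches haem to cytochrome c (-0.45 ± 0.16), Ckmt2, the mitochondrial creatine kinase of muscle (-0.48 ± 0.19), and Ndufa4l2 (0.54 ± 0.25). The edgeR adjusted p was 0.897 for all 9 genes. Cox17 had 8.17, 7.12 and 7.52 CPM in KO total and 7.66, 30.6 and 13.3 CPM in WT total, with the highest value once more in WT total library 2.

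Between the IP groups none of these genes passed either. Of the assembly factors 21 of 31 were below 0, of the neighbours 9 of 10, and of the regulators 5 of 15. The smallest p-values belonged to the assembly factors Uqcc2 of complex III (-0.64 ± 0.22, SE), Cox14 of complex IV (-0.68 ± 0.24) and Lyrm7 (0.67 ± 0.26), with edgeR adjusted p of 0.3002, 0.304 and 0.382. Ndufa4, now counted with complex IV, stood at -0.56 ± 0.23, Slc25a4, the ATP and ADP exchanger of muscle, at -0.38 ± 0.25, and Ckmt2 at -0.23 ± 0.22. Among regulators, Slirp, the partner of Lrpprc, stood at -0.65 ± 0.32, Mterf3 at 0.99 ± 0.49 (or -0.15 without KO IP library 2), and Polrmt, the mitochondrial RNA polymerase, at 0.55 ± 0.40. In the interaction 0 genes of the 3 lists passed, and the smallest p was that of Lyrm7 (1.18 ± 0.38, edgeR adjusted p = 0.342). Mterf3 came next, at 1.51 ± 0.59, and then Uqcc2, at -1.12 ± 0.44 (edgeR adjusted p = 0.359 and 0.3603).

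Between IP and total RNA, 7 of 34 assembly factors rose and 8 fell in KO, and 8 rose and 7 fell in WT, where 17.7% of all genes rose and 18.8% fell in KO, and 17.6% and 19.4% in WT. Of the 16 regulators 0 rose and 5 fell in KO, and 1 rose and 7 fell in WT, and of the 10 neighbours 2 rose and 6 fell in KO, and 2 rose and 4 fell in WT. Taco1, a translational activator of the mitochondrial Cox1 mRNA, had 9.61 and 2.49 CPM in KO IP and 52.5 to 54.3 CPM in KO total, and 1.26 and 5.06 CPM in WT IP and 45.7 to 57.2 CPM in WT total, and fell, at -3.64 ± 0.45 in KO and -4.0 ± 0.45 in WT (log2, SE). Lrpprc, which stabilizes mitochondrial mRNA, had 39.4 and 32.4 CPM in KO IP and 118 to 151 CPM in KO total, and 34.1 and 35.1 CPM in WT IP and 139 to 177 CPM in WT total. It fell, at -1.98 ± 0.22 in KO and -2.15 ± 0.22 in WT (edgeR adjusted p = 3.41e-05 and 1.61e-05). For both genes the IP values lay below all total RNA values.

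Among the other regulators Tfam, which packages mitochondrial DNA, fell, at -1.77 ± 0.28 in KO and -1.60 ± 0.27 in WT. Gabpa fell too (-1.51 ± 0.30 in KO and -2.32 ± 0.31 in WT), as did Polrmt (-1.07 ± 0.21 in KO and -1.64 ± 0.21 in WT). The KO call of Polrmt was lost with scaling by library size alone (edgeR adjusted p = 0.0505). Among neighbours, Slc25a3, the phosphate carrier, fell, at -1.27 ± 0.23 in KO and -0.97 ± 0.22 in WT. Vdac2, a channel of the outer membrane, fell, at -1.06 ± 0.20 in KO and -0.67 ± 0.20 in WT. Hccs fell (-1.43 ± 0.29 in KO and -1.65 ± 0.28 in WT), and so did Ckmt2 (-1.15 ± 0.23 in KO and -1.37 ± 0.23 in WT). Of the assembly factors of complex IV, Cox11, a copper chaperone, fell in both genotypes (edgeR adjusted p = 7.36e-05 in KO and 0.000153 in WT), with 0.961 and 0 CPM in KO IP and 8.999 to 12.5 CPM in KO total, and 1.26 and 0.779 CPM in WT IP and 11.6 to 13.2 CPM in WT total. Cox15, which takes part in making haem A, fell, at -1.33 ± 0.22 in KO and -1.77 ± 0.22 in WT. Lyrm7 rose by 2.55 ± 0.27 in KO and 1.37 ± 0.27 in WT. Sdhaf1, which helps to place iron-sulphur clusters in Sdhb, rose by 2.34 ± 0.32 in KO and 2.41 ± 0.30 in WT, and Ndufa4l2 by 1.44 ± 0.29 and 2.27 ± 0.28.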

How the data were processed

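The values are whole-number gene counts in 10 libraries, deposited by the authors. STAR, HTSeq and the build mm10 (GRCm38) are named per the submitters' processing notes. Their versions, the strand setting and the annotation are not given in the sources used here. A kit of QIAGEN served for RNA and an Illumina TruSeq kit for libraries, per the labels' protocols. Lines of reads given to no gene stayed out of library sizes: reads with several alignments were 26.1% to 43.3% of a library, and HTSeq gives such reads to no gene, so genes with near-identical copies can be undercounted.

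Symbols were matched for 42462 of 43629 Ensembl IDs with GENCODE vM21. In R 4.3.3, edgeR 4.0.16 was used: low genes were removed by filterByExpr, library sizes were corrected by TMM, and counts were compared by quasi-likelihood F tests with Benjamini-Hochberg adjustment over all genes and a threshold of 0.05. KO and WT were fitted within total RNA and within the IP, and IP over total RNA and the interaction in 1 fit of all 10 libraries. CPM levels use factors over the 10 libraries. Isoform ratios were compared by exact permutation. The fit was run on simulated counts with known changes, drawn from the model of the fit. These held no outlying libraries, so that run does not cover libraries with RNA of other tissues. DESeq2 1.42.0, limma 3.58.1, other scalings, no filter on low counts and left-out libraries were tried. The members and gene lists were chosen with earlier results of these data known. The text names the isoform families, complex II, Cycs, Cyc1, the smallest p-values in each complex and list and the 3 highest and 3 lowest fold changes of each comparison. Atp5k, the head subunits and the genes called in both genotypes were added after their values were seen. Mitochondrially encoded genes were not analysed here.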

Additional observations from a re-analysis of the deposited data

How the results depend on the processing

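The medians of the set kept their sign in total RNA except with scaling by library size alone (-0.142), without library 3 of each genotype (-0.206) and among the fits that leave out 1 library, which ran between -0.147 and 0.206. In the IP the same fits gave -0.561 to -0.252 and 0 to 1 calls. DESeq2 made 2 calls in the IP, and without a filter on low counts 1 gene of the set passed in total RNA and 2 in the interaction. In KO IP over total the median was 0.078 with library size alone and -0.503 to -0.036 with 1 library left out, with 10 to 23 calls. In WT it was -0.075 to 0.299, with 11 to 26 calls. The interaction median was -0.053 with library size alone, -0.681 without KO total library 1 and WT total library 2, and -0.58 to -0.168 with 1 library left out. The cause was not tested. Same-numbered libraries correlated at 0.091, -0.109 and -0.296 between KO and WT total RNA, at -0.047 between the IP groups, and at 0.126 and 0.149 between KO IP and KO total and 0.107 and 0.095 between WT IP and WT total. The labels do not say that a number marks a shared animal or day, and not every pair passed 0.1, so the numbers were not taken to pair samples. A replicate block takes total RNA library 3 of each genotype out of the values of IP over total, because no IP library has that number. With this block, KO IP over total had 30 calls and a median of -0.045, and WT IP over total 29 calls. The interaction then had 2 calls, both above 0, with 22 genes above and 25 below 0 and a median of -0.038.

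Isoform differences with 1 library left out ran between -1.57 and -0.821 for Cox6a2 to Cox6a1 and -0.496 and -0.31 for Cox8b to Cox8a in IP against total RNA. For Cox7a1 to Cox7a2 they ran between -0.016 and 0.121 there and -0.129 and 0.043 in KO IP against WT IP, and for Cox8b to Cox8a in KO IP against WT IP between -0.112 and 0.143. In KO IP over total, the values of Cox4i1 and Cox7a1 each changed sign in 5 of 18 alternatives, and that of Cox6a2 in 3. In WT IP over total, Sdhb (3 of 18) and Cox6a1 (3 of 17) did so. Among genes named for a small p-value or an extreme fold change, none of the values that changed sign had passed. In total RNA these values were -0.085 (library size alone) and -0.067 (without library 3 of each genotype) for Uqcrc1. Without library 3 they were -0.043 for Uqcrb and -0.049 for Atp5o. They were 0.134 for Cox6a1 and 0.121 for Cox8a without KO total library 1 and WT total library 2. With 1 library left out, values ran between -0.842 and 0.063 for Cox8a in total RNA. In the IP they ran between -0.545 and 0.634 for Cox4i2, with -0.065 without WT IP library 2, between -0.235 and 1.105 for Atp5s and between -0.147 and 1.444 for Mterf3. In the interaction they ran between -0.238 and 2.024 for Cox6a1 and between -4.324 and 2.914 for Cox6b2, and Cox6a1 stood at -0.414 without KO total library 1 and WT total library 2.

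With 2 IP libraries per genotype and 917462 gene counts in the shallowest, Cox6b2, Cox7b2, Cox8c, Atp5g2 and Atp5l were too low to be tested between the IP groups, and Cox7c was tested on 4 to 23 counts per library.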
